A study of Mus musculus with 2 samples.

Results

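The Hox cluster genes of the mouse were followed in embryonic stem cells in which the long noncoding RNA LincU was targeted by a short hairpin. Members were all probes that were not controls and whose gene name on the array was Hox, then a, b, c or d, then only digits, which gave 39 genes with 52 probes, of 36992 genes on the array. Of these 39 genes, 17 were well above background on both arrays, 3 on the shCtrl array only, 2 on the shLincU array only and 17 on neither. After each array was scaled to its own bulk of genes, 13 of the 17 genes measured on both were higher on the shLincU array (53.1% of all genes were) and 4 were lower (46.9%). Their median difference was 0.34 on the log2 scale, and none was 2-fold higher (1.14% of all genes) or 2-fold apart in either direction (2.67%). By their median the central genes of the clusters stood highest (0.52), the posterior genes Hoxb9 and Hoxc13 stood lowest, and the 3 measured genes at the posterior end of their clusters stood at or below 0. Position did not order the single genes: the highest of all, Hoxc9 (0.75), was posterior too. With another background correction (normexp), Hoxb13 (0.10) and Hoxd13 (0.35), 2 of those 3 end genes, came out above 0. The genes seen on a single array did not follow the order of the medians either: 2 central genes and 1 posterior gene were on shCtrl only, and 2 posterior genes on shLincU only.

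Hox genes code for transcription factors with a homeodomain that give cells their position along the head-to-tail axis of the embryo. In the mouse they lie in 4 clusters (HoxA to HoxD), and genes that hold the same place in different clusters form 13 paralogue groups, numbered from the anterior end of the cluster to the posterior end. In undifferentiated embryonic stem cells the clusters are textbook targets of Polycomb repression and carry activating marks as well at many starts, and signals such as retinoic acid, Wnt and FGF open them in order as cells leave pluripotency.

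RNA came from 46C, a mouse embryonic stem cell line kept in serum and LIF over feeders, which were taken off before harvest. The control carried a control hairpin according to its genotype label (shCtrl), while its title calls it WT, and the other group carried a hairpin against LincU (shLincU). The labels do not say how many hairpins were used. Each group is 1 one-colour array, so there was no replicate check and no test between groups, and the number of arrays limits the precision. LincU was not analysed here, so the knockdown was not checked and each direction rests on the labels. The study's title links LincU to naive pluripotency and to a limit on ERK signalling.

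Values are intensities of the scanned spots, and a level is the log2 intensity minus the log2 of the 75th percentile of the same array, which was 626 intensity units for shCtrl and 420.2 for shLincU. A difference is the shLincU level minus the shCtrl level, given as log2 with the error that the scanner software assigns to the spots in brackets. The shLincU array was dimmer as a whole: of all probes measured on both arrays, 94.4% had the lower raw intensity on it. Of the 20 Hox probes measured on both arrays, 16 had the lower raw intensity on the shLincU array, and after scaling 16 of the 20 were the higher ones there. The directions below are therefore relative to the other genes and not changes in RNA per cell. The 10 embryonic stem cell markers listed, Pou5f1 and Nanog among them, were all measured on both arrays, 6 higher and 4 lower, with a median difference of 0.007. Their summed level was 1099 times the 75th percentile on shCtrl and 1202 times on shLincU, with Dppa5a, at levels of 9.19 and 9.42, as its largest term.

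All probes are 60 bases long. A few hold letters of the homeobox, the part of the gene that codes for the homeodomain, and they are shown because they print the letters by which the members resemble each other. Capitals mark matches on the sense strand to CANGTNAA or TGGTTNCA, which do not overlap and in these probes code for part of the third helix of the homeodomain, the one that lies in the major groove of DNA. Coordinates are those of the array design in build mm9, each on the + strand and in the orientation of the transcript.
Hoxc11, chr15:102787015-102787074: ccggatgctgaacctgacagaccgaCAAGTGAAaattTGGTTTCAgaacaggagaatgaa
Hoxc12, chr15:102768819-102768878: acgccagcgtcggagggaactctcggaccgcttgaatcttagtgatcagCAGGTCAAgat
Hoxd10, chr2:74532280-74532339: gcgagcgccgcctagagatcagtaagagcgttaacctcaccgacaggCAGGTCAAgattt
CANGTNAA was in 3 of the 52 Hox probes (5.77%) and in 949 of 56605 probes of the array (1.68%). TGGTTNCA was in 2 Hox probes (3.85%) and in 295 of all probes (0.521%). The probes shown were dim: those of Hoxc11 and Hoxd10 were not well above background on either array, and that of Hoxc12 was so on the shCtrl array only.

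By position, HoxA lies on chromosome 6, and in mm9 HoxB spans chr11:96057854-96228510, HoxC chr15:102759058-102867272 and HoxD chr2:74509248-74603059, from the first to the last Hox probe. These 3 spans are 171, 108 and 93.8 kb. Most Hox genes, 29 of the 39, had a single probe, 7 had 2 and 3 had 3. A probe named Hoxb2 is on the strand opposite to the gene and was read apart from it, and 2 probes, of Hoxa9 and Hoxb3, cross an intron.

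Detection was patchy and low. Of the 39 Hox genes, 17 were well above background on both arrays, where 56.8% of all genes on the array were, and 17 were on neither, where 37.1% of all genes were. A further 3 were above background on shCtrl only, against 4.53% of all genes, and 2 on shLincU only, against 1.54%. HoxA had 5 of its 11 genes measured on both arrays, HoxB 6 of 10, HoxC 3 of 9 and HoxD 3 of 9. No gene of paralogue groups 5, 11 or 12 was measured on both, while both genes of group 7 (Hoxa7 and Hoxb7) were, and so were 3 of the 4 genes of group 9 and of group 13. Levels were low even where measured: 16 of the 17 genes lay below the median level of all genes.

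**Figure D1:**
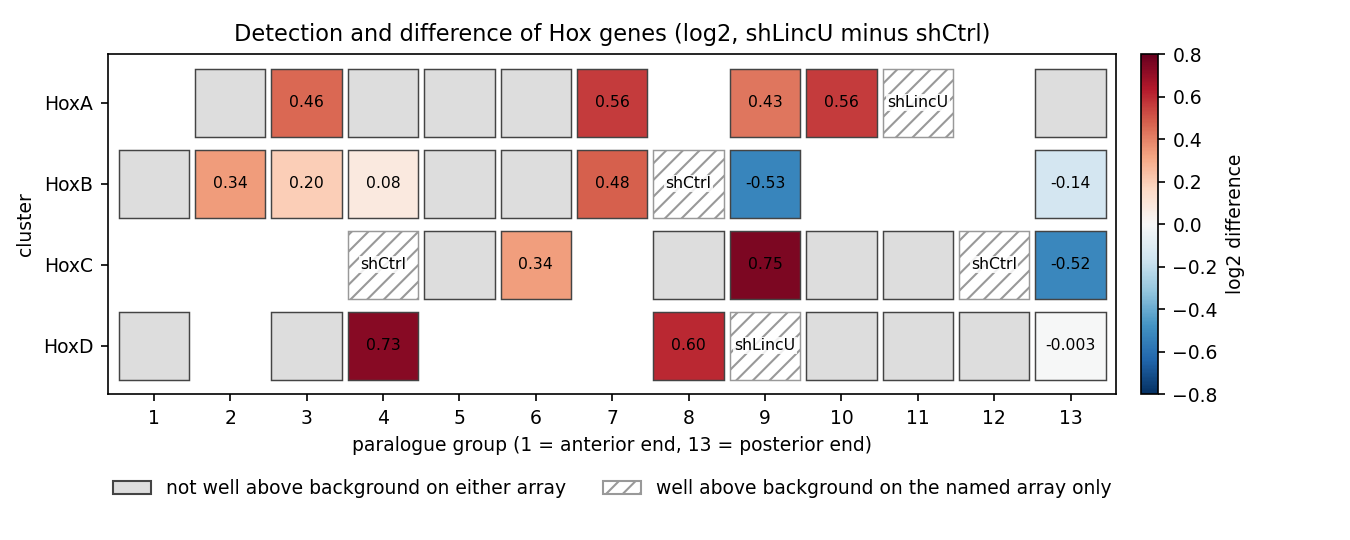
Grid of Hox genes by cluster (rows) and paralogue group (columns). A number and its colour give the log2 difference, shLincU minus shCtrl, of 16 genes measured on both arrays; grey marks genes on neither array, hatching those on the named array only, and empty places are not drawn. The values drawn in groups 2 to 8 are above 0, and the measured genes of group 13 stand at or below 0.

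The 17 genes on neither array were Hoxa2, Hoxa4, Hoxa5, Hoxa6 and Hoxa13 in HoxA, Hoxb1, Hoxb5 and Hoxb6 in HoxB, Hoxc5, Hoxc8, Hoxc10 and Hoxc11 in HoxC, and Hoxd1, Hoxd3, Hoxd10, Hoxd11 and Hoxd12 in HoxD. Hoxb1, a hindbrain gene known to answer retinoic acid, was among them at 5.13 and 10.66 intensity units on shCtrl and shLincU. Over the 25 Hox probes above background on neither array the intensity ran from 4.81 through a median of 5.57 to 20.6 on shCtrl and from 4.15 through 7.26 to 22.1 on shLincU. For comparison, the 308 negative control spots had a median of 5.03 and 4.39 intensity units, and 4 and 8 of them were well above background. Some of the dim probes carried signal by the software's weaker flag, positive and significant, which 13 of the 25 had on shCtrl and 14 on shLincU. A gene on neither array is therefore not shown to be absent, only to be under the level that the flag for well above background accepts.

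Among the anterior genes (groups 1 to 3), which pattern the hindbrain and the pharyngeal arches, all 4 that were measured were higher on shLincU, with a median of 0.28. Hoxa3, needed for thymus and parathyroid, read 63.9 intensity units on shCtrl and 59.0 on shLincU, a difference of 0.46 (0.26). Its other 2 probes were above background on neither array.

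Hoxb2, which acts in hindbrain segments, read 40.3 on shCtrl and 34.3 on shLincU, a difference of 0.34 (0.33). Hoxb3, its neighbour with a role in the same segments, had 2 measured probes. The probe that crosses an intron read 97.3 and 66.4, a difference of 0.02, and the other one 60.5 and 52.4, a difference of 0.37, which left the gene at 0.20 (0.18). No measured anterior gene differed by more than 1.96 times its software error, the multiple that spans the usual range of a normal error.

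The central genes (groups 4 to 8), which pattern the neck and trunk, were all higher on shLincU where measured on both arrays, 6 of 6, with a median of 0.52. A further 2 central genes, Hoxb8 and Hoxc4, were seen on shCtrl only, and 0 on shLincU only. Hoxd4, a gene of the hindbrain and neck boundary known to respond to retinoic acid, was at 59.9 intensity units on shCtrl and 66.7 on shLincU, a difference of 0.73 (0.25), or 1.66-fold. Its paralogue Hoxb4, known for expanding blood stem cells, was at 47.9 and 34.0, a difference of 0.08 (0.32). Within this paralogue group the HoxD gene was thus higher by more than its error and the HoxB gene by much less than its own.

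In group 7, Hoxa7 read 156 on shCtrl and 155 on shLincU, a difference of 0.56 (0.21), and Hoxb7 read 81.4 and 76.2, a difference of 0.48 (0.24). Both act in the thoracic region, and here their raw values were nearly level while most of the array was dimmer. Hoxc6, a thoracic marker, read 64.5 and 54.7, a difference of 0.34 (0.27), and its second probe read 29.7 on shCtrl and 20.1, not well above background, on shLincU.

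Hoxd8, which also acts in the trunk, was measured by 2 neighbouring probes. The brighter went from 71.7 on shCtrl to 89.8 on shLincU, a difference of 0.90, and the other from 34.4 to 28.6, a difference of 0.31. The gene's mean difference was 0.60 (0.22), or 1.52-fold, so that its place among the genes at 1.5-fold rested on the brighter probe.

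**Figure D2:**
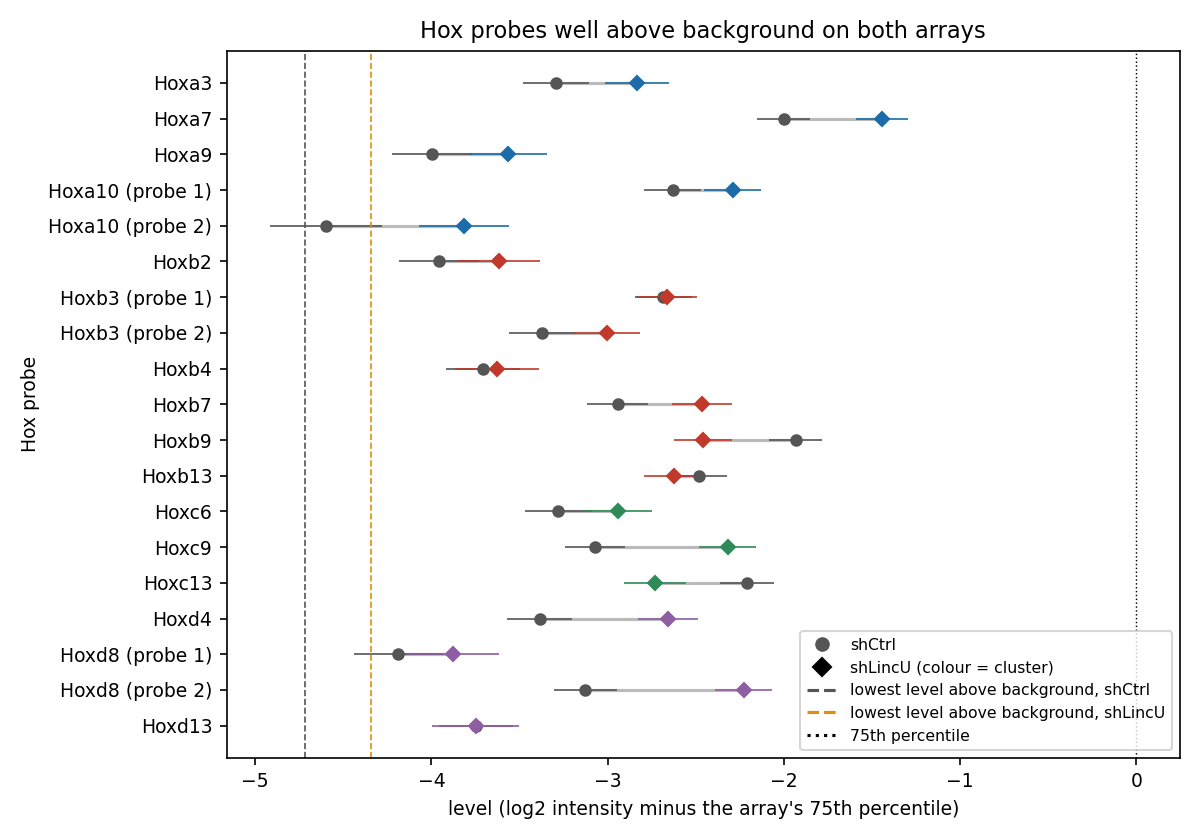
Level of 19 Hox probes measured on both arrays, as log2 intensity minus the 75th percentile of the array. Circles are shCtrl, diamonds shLincU with the colour of the cluster, bars the software's error of the spot, and dashed lines the lowest level well above background on each array. Hoxa7 lies farthest to the right and every probe drawn lies below the 75th percentile.

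The posterior genes (groups 9 to 13), which pattern the lower trunk, limbs, genitals and tail, were divided. Of the 7 measured, 3 were higher and 4 were at or below 0 on shLincU, and the median was -0.003. A further 2, Hoxa11 and Hoxd9, were seen on shLincU only, and 1, Hoxc12, on shCtrl only. Hoxc9, which acts in the thoracic spinal cord, had the largest difference of the family measured on both arrays: it read 74.4 on shCtrl and 84.2 on shLincU, a difference of 0.75 (0.24), or 1.69-fold. Hoxb9, its paralogue, had the lowest, with 164 on shCtrl and 76.4 on shLincU, a difference of -0.53 (0.22). A second Hoxb9 probe, at 5.42 and 4.87, was above background on neither array. Hoxa9, a blood progenitor and leukaemia gene of the same paralogue group, read 39.3 and 35.5, a difference of 0.43 (0.32). Group 9 thus held both ends of the family's range.

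Hoxa10, needed in the uterus and the lower spine, had 2 measured probes: 101 on shCtrl and 86.0 on shLincU, a difference of 0.34, and 25.9 and 29.9, a difference of 0.78. The second probe sat beside 3 spots that were discordant in the same direction, that is at least 2-fold higher on shLincU, and whether its place on the slide shaped its value was not tested. The gene's mean difference was 0.56 (0.23).

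The genes of group 13, the last of each cluster, stood at or below 0 in all 3 cases measured, while Hoxa13 was on neither array. Hoxc13, known for hair and nails, read 135 on shCtrl and 63.3 on shLincU, a difference of -0.52 (0.23). Hoxb13, a gene of the tail and the prostate, read 112 and 68.2, a difference of -0.14 (0.23). Hoxd13, which shapes the digits, read 46.7 and 31.3, a difference of -0.003 (0.33). Only the first of these exceeded 1.96 times its error, and with background correction by normexp Hoxc13 was at -0.12 and Hoxb9 at -0.17, while Hoxb13 and Hoxd13 came out above 0 (0.10 and 0.35).

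Genes above background on a single array have only a bound, which sets the bright array against the lowest signal that was well above background on the dim one, or against the dim probe's own signal where that was higher. Hoxd9, a gene of the lumbar region and the limbs, read 24.9 on shCtrl, not well above background there, and 40.5 on shLincU, with a bound of 2.42-fold higher. Its shCtrl signal was above the lowest one accepted there, so the bound is set by the probe's own signal and equals the ratio of the scaled signals. It is therefore an estimate and not a minimum, at 1.28 (0.42) on the log2 scale. With normexp background correction the bound was 0.68 on the log2 scale, which ended the call at 2-fold. Among the 39 genes, with the probe opposite to Hoxb2 read apart, Hoxd9 was the only one at 2-fold by either measure, and 23.6% of the 2246 genes seen on a single array reached that bound. Hoxa11, a limb and kidney gene, read 17.7 and 23.8, at least 1.49-fold higher.

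In the other direction, Hoxb8, a trunk gene also known in microglia, read 42.9 on shCtrl and 19.2 on shLincU, at least 1.39-fold lower. A second Hoxb8 probe pointed the other way, at 5.57 and 18.2, but was above background on neither array. Hoxc12 read 31.9 and 8.89, at least 1.03-fold lower, and Hoxc4 read 30.7 and 20.0, for which no fold can be given. With normexp none of these 3 genes had a bound above 1-fold, at -0.16, -0.14 and -0.33 on the log2 scale for Hoxb8, Hoxc12 and Hoxc4. These single-array members lay close to the limit of detection.

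**Figure D3:**
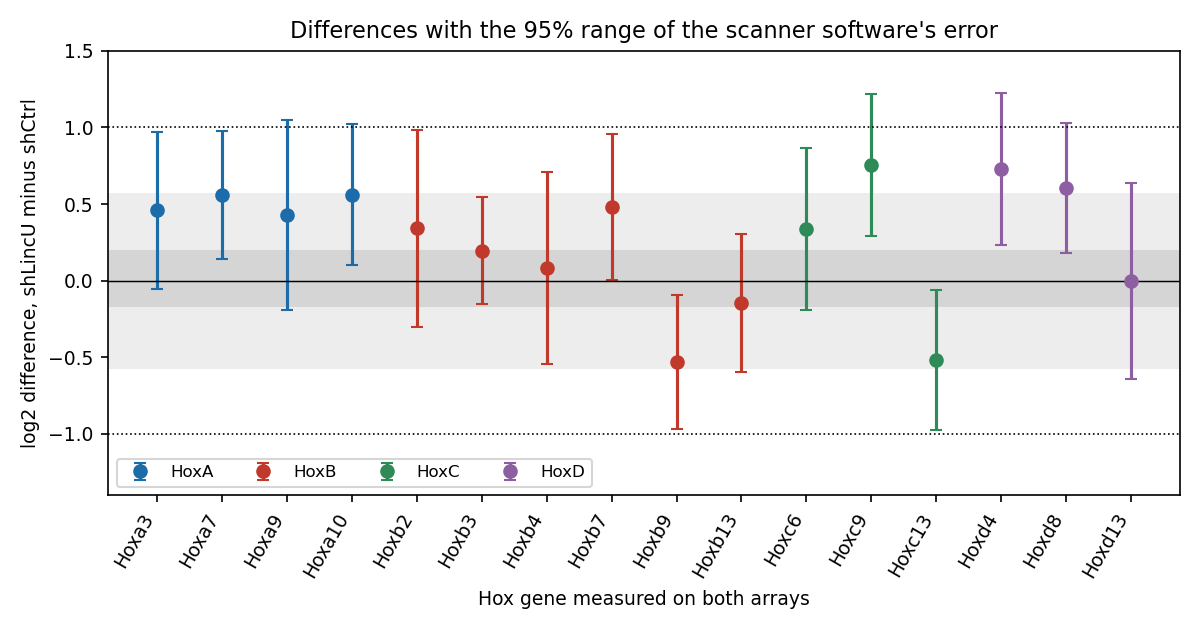
Log2 difference, shLincU minus shCtrl, of 16 Hox genes measured on both arrays, in order of cluster and paralogue group. Bars are 1.96 times the scanner software's error, grey bands the middle 50% and 90% of all measured genes, and dotted lines 2-fold. Hoxc9 and Hoxd4 stand highest and Hoxb9 and Hoxc13 lowest, and no gene reaches a dotted line.

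Set against the array as a whole, the members' median of 0.34 compares with 0.02 over all 21018 genes measured on both arrays, and their 13 of 17 above 0 with 53.1% of all genes. At 0.3 or more, 10 Hox genes were higher and 2 lower, where 16.2% and 14.6% of all genes were. At 1.5-fold, 3 were higher (Hoxd8, Hoxd4 and Hoxc9) and none lower, where 4.78% and 4.84% of all genes were. Since the Hox genes are dim, the genes of the same level range are the closer comparison: of those 10931 genes, 51.1% were above 0, with a median of 0.0085, and 6.17% were at least 1.5-fold higher. These are descriptions of 2 arrays, and no chance statement was drawn from them.

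Differences of this size lie near the noise of the spots. By the software's error, 6 Hox genes were higher and 2 lower by more than 1.96 times their error, where 11% and 10.3% of all genes were. A measured error came from 6 probes spotted 10 times on each array, with every spot well above background. Their shCtrl intensity fell in the range of the measured Hox probes, whose upper end rests on a single bright probe. No range was set on shLincU. The SD between their spots was 0.11 on shCtrl and 0.23 on shLincU, or 0.26 for a difference. At 1.96 times that SD, which is 0.50, 5 Hox genes were higher and 2 lower. The share of all genes past 0.50 was not computed, and their 5th and 95th percentiles were -0.58 and 0.57. The SD is that of single spots, while some Hox values are means of 2 probes. These errors cover the spots of an array and say nothing of the spread between cultures.

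By cluster, HoxA was the most uniform: all 5 of its measured genes were higher, with a median of 0.46. In HoxD the median was 0.60, with Hoxd4 and Hoxd8 higher and Hoxd13 at -0.003. HoxB was split, with 4 genes higher and 2 lower and a median of 0.14, and its lower genes, Hoxb9 and Hoxb13, are its most posterior ones. HoxC had Hoxc6 and Hoxc9 higher and Hoxc13 lower. In each of HoxB, HoxC and HoxD the lowest gene measured on both arrays was thus a posterior one, though HoxC and HoxD had only 3 measured genes each. Posterior genes were not low throughout. In HoxA the measured posterior genes, Hoxa9 (0.43) and Hoxa10 (0.56), were higher on shLincU, and in HoxC the highest gene, Hoxc9 (0.75), was posterior too.

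The other probes inside the cluster spans, mostly for noncoding transcripts that run between or opposite to the Hox genes, were read in the same way. There were 34, of which 17 were measured on both arrays, 11 of them higher and 6 lower, with a median of 0.12. In HoxA 5 of 6 were higher: Hoxaas2, opposite to Hoxa3, went from 27.8 on shCtrl to 34.9 on shLincU, a difference of 0.90 (0.39), and Hoxaas3, near Hoxa7, from 28.7 to 35.3, a difference of 0.87 (0.36). The transcript AK039882 between them was above background on shLincU only, at least 1.90-fold higher. Mira was at 0.34, Hoxa11os at 0.33 and 0.21 on its 2 probes, and Gm15050 at -0.28. In HoxA the measured Hox genes and the other measured probes were thus above 0, with Gm15050 as the exception, where 53.1% of all measured genes were above 0. The 2 Hoxa11os probes overlap. Hoxaas2 and Hoxaas3 lay close to the lowest shCtrl signal that was well above background, 23.8, and another Hoxaas3 probe was on neither array.

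In HoxB most probes measured between Hoxb13 and Hoxb9 were lower. There AK085288 went from 612 on shCtrl to 201 on shLincU, a difference of -1.03 (0.21), the widest of any probe in the spans that was measured on both arrays. Gm53, which lies beside it, went from 211 to 77.6, a difference of -0.87 (0.22). Unnamed long noncoding RNA probes on both strands of the same stretch were at -0.24 and -0.32, and another was at 0.18, beside 2 spots discordant in the lower direction. Gm11538, nearer to Hoxb13, was above background on shCtrl only, at least 1.38-fold lower. Farther to the anterior side the values were mixed. Hoxb5os was at 0.86 on its first probe and 0.12 on its second, which lies beside 3 spots discordant in the higher direction. The probe on the strand opposite to Hoxb2, AK036636, went from 155 to 4.29 and was at least 5.01-fold lower. It lay beside 2 spots that were discordant in the same direction, and whether its place on the slide shaped its value was not tested. Hoxb8, as given above, was seen on shCtrl only. The lower values of Hoxb9 and Hoxb13 had lower values of neighbouring transcripts around them; the stretch was singled out after its values were seen.

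In HoxC, Gm4200 was at 0.07, and HOTAIR, the noncoding RNA between Hoxc11 and Hoxc12, was above background on neither array. In HoxD, AI448005 near Hoxd4 was at 0.63 (0.27), Haglr at 0.03 and BC060302 at -0.15. AK016928, between Hoxd1 and Hoxd3, went from 93.6 on shCtrl to 13.4, not well above background, on shLincU, at least 3.03-fold lower.

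**Figure D4:**
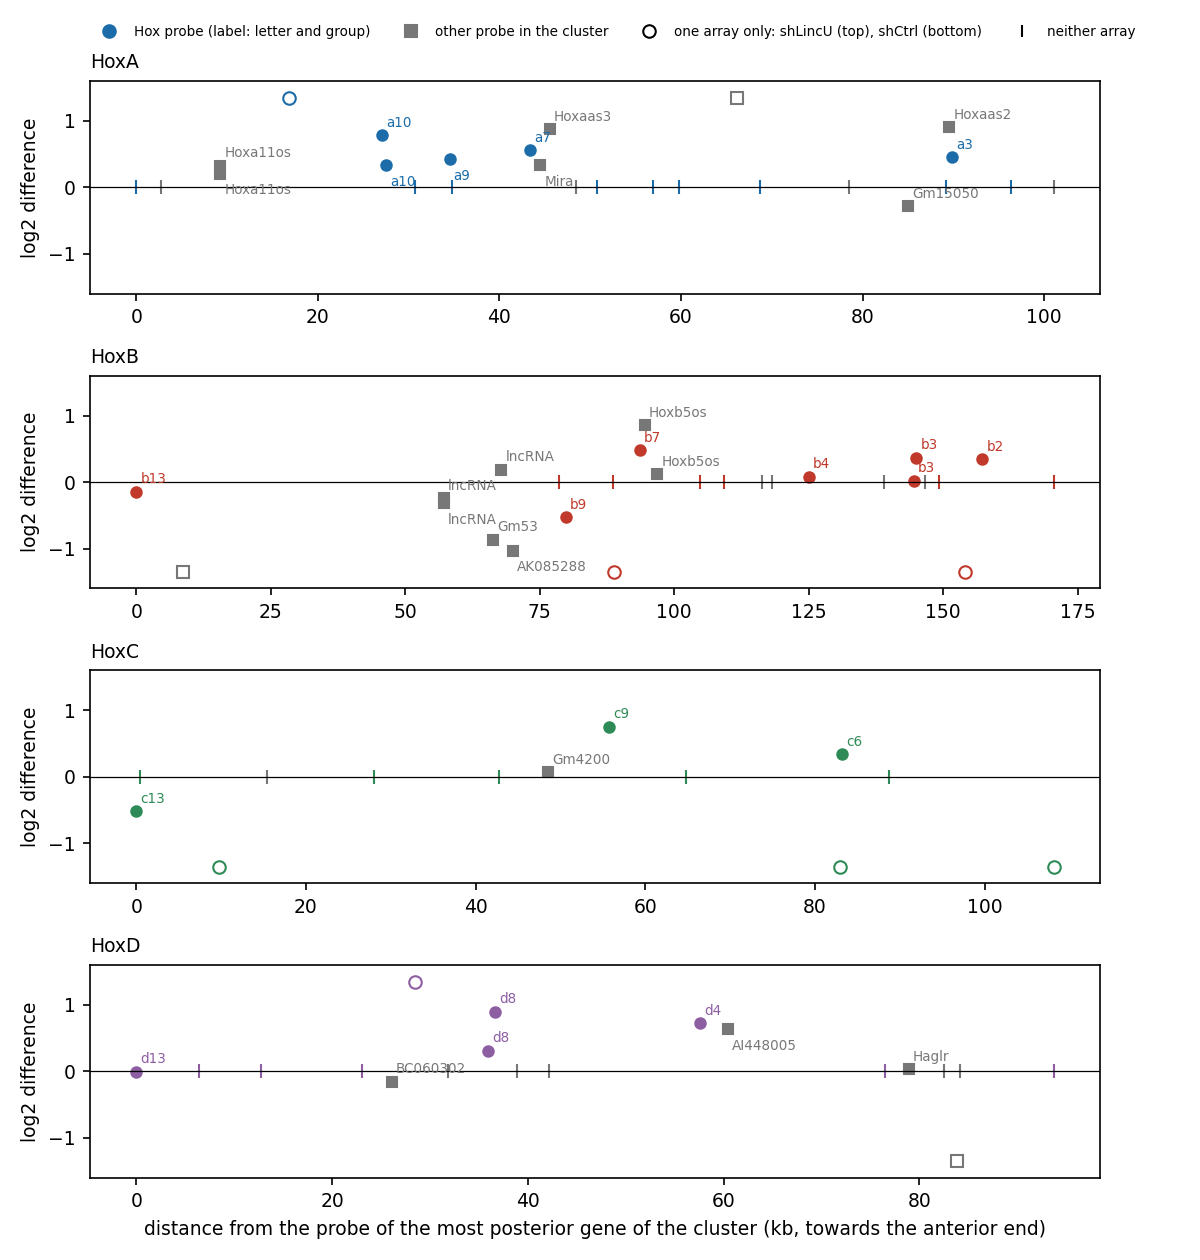
Log2 difference, shLincU minus shCtrl, of probes inside the 4 clusters against its distance in kb from the most posterior Hox probe. Circles are Hox probes, squares other probes, ticks on the zero line probes on neither array, and open symbols probes on a single array, drawn at the top for shLincU and at the bottom for shCtrl. In HoxB, Hoxb9, Gm53 and AK085288 lie below 0 and the probes from Hoxb7 onwards that were measured on both arrays lie above it.

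The genes that lie beside the clusters did not lean one way: 13 of the 23 listed neighbours were higher and 10 lower, with a median of 0.02. At 2-fold stood 2 neighbours of HoxA, where 1.14% of all genes were that much higher and 1.53% that much lower. Evx1, a homeobox gene of the posterior embryo next to Hoxa13, was at 1.16 (0.21), and Jazf1 at 1.05 (0.36). The Jazf1 value rests on 1 of its 2 probes, at 29.3 intensity units on shCtrl, where the lowest signal well above background was 23.8. Calcoco2, a neighbour of HoxB, was the lowest at -0.66 (0.20).

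Partners and regulators of Hox genes were taken from fixed lists. All 9 TALE homeodomain cofactors, the Pbx, Meis and Pknox proteins that bind DNA together with Hox proteins, were measured, 7 higher and 2 lower, with a median of 0.15. Meis2 was the lowest at -0.10 (0.14). Of the 6 Cdx and ParaHox genes 4 were measured, 2 in each direction: The highest was Cdx2, which activates central and posterior Hox genes, at 0.999 (0.20), just under 2-fold, and the lowest was Cdx1 at -0.38 (0.20). Cdx4 and Gsx2 were on neither array.

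Of the retinoic acid list, 17 of 18 genes on the array were measured, 7 higher and 10 lower, with a median of -0.08. Its ends lay far apart. Cyp26a1, the enzyme that breaks retinoic acid down, was at 1.78 (0.22), and Stra8, a retinoic acid target of germ cells, at -4.39 (0.20). Hoxd4, named above as a gene known to respond to retinoic acid, was higher, and Hoxb1 was on neither array. Hoxb4, the paralogue of Hoxd4, was at 0.08 (0.32), and a link between this list and the Hox values was not tested.

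Among further regulators of Hox expression, 11 of 15 were measured, 6 higher and 5 lower, with a median of 0.33. At 2-fold stood Fgf8, a signal of the tail bud, at 2.003 (0.21), T, the mesoderm factor Brachyury, at 1.098 (0.20), and Sp5, a Wnt target, at 1.04 (0.20). Wnt3a was the lowest at -0.38 (0.31). All 3 genes at 2-fold were higher on shLincU, where 1.14% of all genes were 2-fold higher and 1.53% were 2-fold lower.

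The chromatin regulators were mostly near 0. Of the 32 Polycomb genes, which keep Hox clusters silent, 18 were higher and 14 lower, with a median of 0.06, from Pcgf6 at -0.57 (0.14) to Rbbp7 at 0.44 (0.12). A list of 18 genes held Trithorax genes, which act against Polycomb, and related histone enzymes, not all of which do so. Of these 18 genes, 10 were higher and 8 lower, with a median of 0.03, from Kdm6b at -0.41 (0.15) to Kmt2b at 0.42 (0.20). No gene of either list was 2-fold apart.

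Cell types other than stem cells can carry Hox RNA, so their markers were read beside the members. Of 24 fibroblast markers, which feeder cells could bring, 21 were measured on both arrays, 11 higher and 10 lower, with a median of 0.002, and their summed level over the 75th percentile was 82.3 on shCtrl and 98.3 on shLincU. The brightest probes in that sum were those of Acta2 and Tagln, and Tagln stood at levels of 4.03 on shCtrl and 4.91 on shLincU. The list was mixed: the matrix genes Dcn (-2.41), Lox (-2.15) and Col1a2 (-1.20) and also Ccl2 (-2.24) and S100a4 (-1.88) stood 2-fold or more lower. These were 5 genes, where 1.53% of all genes were that much lower, and 0 genes of the list measured on both arrays were 2-fold higher. At 1.5-fold 7 were lower, Thy1 (-0.94) and Postn (-0.91) among them, and 4 were higher, where 4.84% and 4.78% of all genes were. Other matrix genes of the list stood higher, Col1a1 at 0.45, Col3a1 at 0.64 and Col5a1 at 0.73, and Tagln was the highest measured on both arrays at 0.88. Lum, also of the matrix, was seen on shLincU only, at least 2.32-fold higher, beside discordant spots. The part of fibroblast RNA in the Hox values was not tested, and in these bulk samples fewer cells of a type and less RNA per cell cannot be told apart.

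Of the 10 neural progenitor markers 7 were measured, with summed levels of 12.5 on shCtrl and 11.9 on shLincU, and Pax3, Olig2 and Neurog2 were on neither array. Fabp7, a radial glia gene, was the only neural marker at 2-fold, at -1.76 (0.28). Of the 9 paraxial mesoderm markers 4 were measured, 3 higher and 1 lower, with a median of 0.30. Their sums were 20.2 and 18.7, in which the lower gene, Tcf15, at levels of 4.312 and 4.2005, was the largest term. Meox1 and Meox2 were seen on shCtrl only, and Msgn1, Foxc1 and Foxc2 were on neither array. Of the 8 endoderm markers 5 were measured, with sums of 0.522 and 0.580, and Afp and Ttr were on neither array. The part of such cells in the Hox values was not tested.

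Promoters are shown for Hoxd4 and Hoxd8, which were among the 3 genes at 1.5-fold, and for Hoxb4 and Hoxd13, which were close to 0, so that the sequence before the start can be set beside the values. Each is the 250 bases before the RefSeq start in GRCm38.p6, on the + strand, and capitals mark matches on either strand to TGATTNAT (a Pbx and Hox site), TTTATNG (a Cdx or posterior Hox site), AGGTCA (a core site of nuclear receptors such as those for retinoic acid) or TATAAA (the TATA box), which may overlap.
Hoxd4, chr2:74721728-74721977: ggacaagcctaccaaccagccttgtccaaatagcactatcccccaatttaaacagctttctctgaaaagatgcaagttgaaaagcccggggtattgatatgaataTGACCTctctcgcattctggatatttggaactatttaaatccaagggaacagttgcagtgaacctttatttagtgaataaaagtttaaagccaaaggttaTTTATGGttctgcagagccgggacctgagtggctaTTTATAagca
Hoxd8, chr2:74704365-74704614: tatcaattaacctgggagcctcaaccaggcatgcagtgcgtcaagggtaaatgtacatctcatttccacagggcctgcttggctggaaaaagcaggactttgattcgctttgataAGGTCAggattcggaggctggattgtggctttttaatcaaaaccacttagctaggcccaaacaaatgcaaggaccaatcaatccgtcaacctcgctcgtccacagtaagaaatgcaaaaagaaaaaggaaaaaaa
Hoxb4, chr11:96318017-96318266: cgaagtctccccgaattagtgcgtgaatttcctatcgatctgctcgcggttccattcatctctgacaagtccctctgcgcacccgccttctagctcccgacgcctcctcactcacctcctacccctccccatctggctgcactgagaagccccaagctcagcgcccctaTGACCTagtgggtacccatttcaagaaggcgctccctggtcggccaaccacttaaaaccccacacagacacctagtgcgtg
Hoxd13, chr2:74667975-74668224: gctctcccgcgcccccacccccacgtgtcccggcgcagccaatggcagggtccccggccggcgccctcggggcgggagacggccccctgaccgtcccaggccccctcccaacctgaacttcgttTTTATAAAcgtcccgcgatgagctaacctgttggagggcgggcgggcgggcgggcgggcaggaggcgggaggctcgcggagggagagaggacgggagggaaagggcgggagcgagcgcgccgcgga
AGGTCA, read as TGACCT on the other strand, was in the Hoxd4, Hoxd8 and Hoxb4 windows, so it was present both in promoters of higher genes and in that of a gene near 0. A match is a description of letters and not a binding site.

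RefSeq promoters could be matched for 22 of the 39 Hox genes, with 24 starts, out of 32841 starts in the table. AGGTCA was in 6 of the 24 windows (25%), against 14% of all windows, and TATAAA in 4 (16.7%), against 12.4%. TGATTNAT was in 2 (8.33%), against 2.83%, and TTTATNG in 2 (8.33%), against 9.81%. The Hox windows were richer in CpG, the dinucleotide of unmethylated promoters, with a median of 12.5 per 250 bases against 6 over all starts, and their median GC content was 58.6% against 52.4%. They ranged widely, from 3 CpG before Hoxd4 to 31 before Hoxd13 among the promoters shown.

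**Figure D5:**
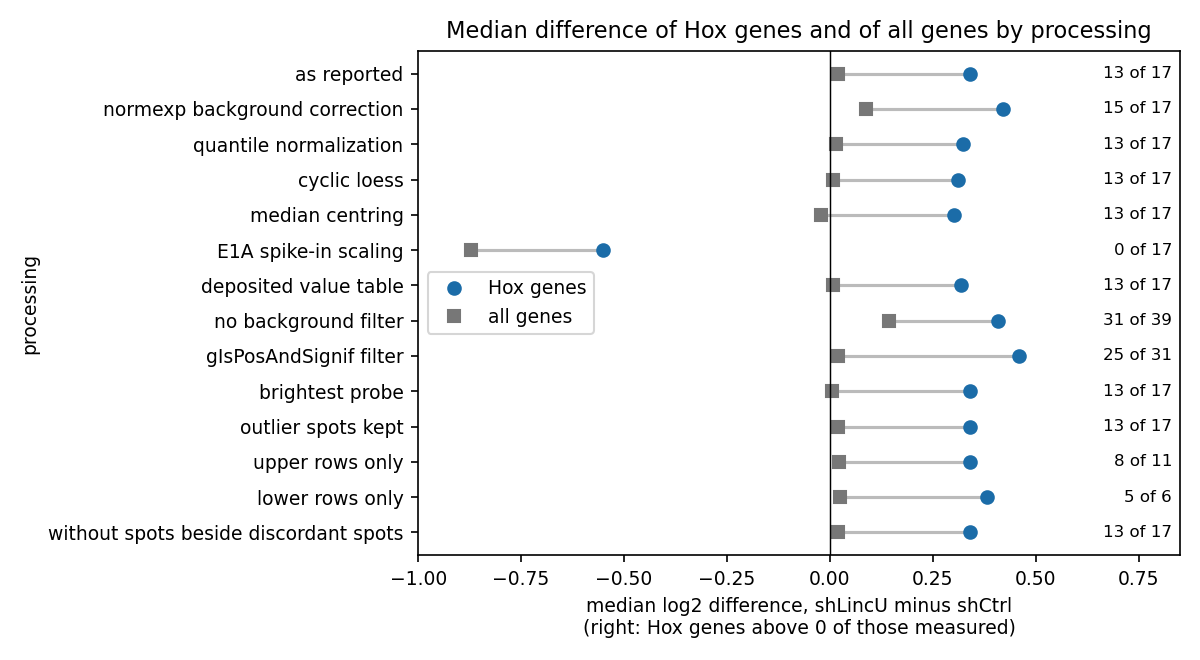
Median log2 difference, shLincU minus shCtrl, of Hox genes (circles) and of all genes (squares) under the processing reported and 13 others, with the number of Hox genes above 0 at the right. The Hox median lies to the right of that of all genes in each setting, and under scaling to the E1A spike-in controls both lie below 0.

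Across 13 other ways of processing the arrays, the Hox median lay above the median of all genes by 0.27 to 0.44. Median centring and E1A scaling move every gene by the same amount, so in those settings this gap is 0.32 by construction. Keeping outlier spots, taking the brightest probe and leaving out spots beside discordant ones changed few member values, with a Hox median of 0.34 in each. All settings use the same 2 arrays, so they are not separate checks of the gap. Under scaling to the E1A spike-in controls, which sets the arrays on added RNA instead of on the bulk of genes, all 17 members were below 0, with a median of -0.55, and the median of all genes was -0.87. The sign of the members' differences thus depends on the scaling.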

How the data were processed

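For each group 1 one-colour Agilent array was hybridised with Cy3-labelled RNA of 46C cells. Spots were read by Agilent Feature Extraction, version 10.7.1.1 in the submitters' processing notes. Per the file headers, the authors' processed intensity was corrected for background by spatial detrending and for a multiplicative trend, and surrogate values stood in for spots at background, so dim values carry little order. Other columns used from the deposited files are that software's 0 or 1 flags. The deposited value table holds log2 values; its normalization and centring are not given in the sources used here, and it served as an alternative only.

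Spots flagged as outliers (98 on shCtrl, 138 on shLincU) were left out. The main value was log2 of processed intensity minus the array's 75th percentile over probes that were not controls, and the difference of a gene averaged those of its probes that passed the well-above-background flag on each array. Genes were named by the array for Hox members and through RefSeq GRCm38 for others. Spot positions are in mm9 and promoters in GRCm38.p6; exons and UTRs were not assigned. Samples were grouped by genotype label. With 1 array per group no test was made. The calculation was tested on simulated data. The rule named every Hox gene and, from other lists, genes at least 2-fold apart or else the highest and the lowest; a few items are not reported here or drawn in the figures, and counts and medians include them. Members and lists were chosen with earlier results of these data known.

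A spot is discordant when at least 2-fold apart between arrays, and a spot lies beside discordant ones when 2 or more of the 14 spots around it (up to 2 rows and 1 column away) are so in the same direction. Alternatives were normexp (offset 50), quantile, cyclic loess, median and E1A scaling, the value table, other filters, and the upper and the lower of the 384 rows. Software was R 4.3.3 with limma 3.58.1 and Python 3.11.15 with pandas 2.3.3, numpy 2.4.6 and matplotlib 3.10.9.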

Additional observations from a re-analysis of the deposited data

How the results depend on the processing

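No paired analysis was possible because there is a single array per group, which also means that none could be left out. The sign of the Hox median rests on the scaling: with E1A spike-in controls it was -0.55, with 0 of 17 genes higher and 4 at 2-fold (Hoxb9, Hoxb13 and Hoxc13 lower, Hoxb8 by its bound), against 13 higher and 1 at 2-fold as reported; the shift was that of all genes. Under quantile, cyclic loess, median centring and the deposited value table the median lay between 0.30 and 0.32, with 13 of 17 higher, and under normexp it was 0.42, with 15 higher and 0 at 2-fold, since the bound of Hoxd9 shrank to 0.68. Of all measured genes, 47.1% to 52.3% were higher in the first 4 of these settings and 64.0% under normexp. With E1A scaling 1.51% of all genes were higher and 32.5% were 2-fold apart. The filter on dim probes decides how many genes are counted. Without it 39 genes were counted, 31 higher and 8 at 2-fold, and Hoxb2 turned to -2.13 because the probe on the opposite strand entered its mean. Of all genes 63.4% were higher and 7.55% were 2-fold apart in that setting. Probes at background were counted there too, such as that of Hoxd12, which read 4.94 on shCtrl and 4.26 on shLincU and stood at 0.36 after scaling. With the weaker flag 31 genes were counted, 25 higher and 7 at 2-fold, 5 by their difference and 2 by their bounds. Of all genes 52.6% were higher with that flag and 6.99% were 2-fold apart by their difference. The upper rows alone held 11 measured genes, 8 higher and 0 at 2-fold, and the lower rows 6, 5 higher and 2 at 2-fold by their bounds (Hoxb2 and Hoxd9). At 1.5-fold in place of 2-fold 4 genes passed, Hoxd9 by its bound among them, where 4.78% of all measured genes were that much higher and 4.84% that much lower. The lower values of Hoxb9 and Hoxc13 kept their sign in every setting that measured them but came to -0.06 and -0.08 without the filter, where the second, dim probe of each entered its mean.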
